A study of Mus musculus with 8 samples.

Results

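The step from diestrus to proestrus was taken from 4 of the 8 uterine RNA libraries of an estrous cycle series, proestrus libraries 1 and 2 and diestrus libraries 1 and 2, chosen by the stage in their labels and not by any measured value. The animals were female ICR mice, an outbred stock, of 6 to 8 weeks, staged by vaginal smear and otherwise untreated as far as the labels say. Estrus and metestrus, with 2 libraries each, entered the filter on low counts, the scaling and the estimate of the spread, so that a tested gene can have few counts in the 4 libraries compared. Of 52308 genes in the deposited counts, 18114 had enough counts to be tested, and the others were left out of all shares below. Levels are in CPM, a gene's counts scaled to the normalised library size, and always in the order library 1 and library 2. Changes are log2 fold changes ± SE of proestrus over diestrus, so that "rose" and "fell" mean higher or lower in proestrus, with p adjusted over all genes tested. Nothing in the labels tells whether library 1 and library 2 of a stage are from different animals, and the p-values therefore rest on a spread that may be technical only.

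Diestrus is the phase of the cycle in which the corpora lutea secrete progesterone, and proestrus the phase in which luteal progesterone has declined and growing follicles raise estradiol toward its preovulatory peak. In the rodent uterus estradiol, acting through its receptor Esr1, is known for fluid secretion, epithelial growth and secretion of defence proteins. Progesterone, acting through Pgr, is known for hedgehog signalling from epithelium to stroma. In a whole organ, fewer cells of a type and less RNA per cell cannot be told apart, and this holds for every cell type gene below.

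Markers of the uterus were present in all 4 libraries. The epithelial adhesion gene Epcam had 663 and 533 CPM in proestrus and 163 and 117 CPM in diestrus, the stromal receptor gene Pdgfra 218 and 306 against 541 and 472 CPM, the smooth muscle myosin Myh11 1784 and 1278 against 3599 and 1448 CPM and the endothelial Pecam1 134 and 166 against 261 and 169.9 CPM. Of 13 ovary genes, the granulosa cell genes Fshr and Cyp19a1 and the oocyte gene Nlrp5 had 0 counts in the 4 libraries, the transcription factor gene Foxl2 reached 50.8 CPM and the steroid carrier gene Star 9.13 CPM, and none of the 5 tested was called (2 at an unadjusted p under 0.05, 0 by DESeq2 and 0 by limma-voom, rising 0, 0, 0 and 1). Library totals of the 4 ran from 17863546 to 21896786 counts. The mitochondrially encoded transcripts summed to 22477 and 22695 CPM in proestrus and 22343 and 22323 CPM in diestrus, and none of the 13 was called (0 at an unadjusted p under 0.05, 0 by DESeq2 and 0 by limma-voom).

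Between diestrus and proestrus, 4050 genes changed, 22.4% of those tested: 2175 rose (12.0%) and 1875 fell (10.4%). The median change was 1.25 among the risers and -1.20 among the fallers, beside -0.01 over all genes tested. Changes past 4 on the log2 scale were seen in 205 risers and 83 fallers. Both libraries of one stage lay above both of the other in all 4050 called genes, but also in 60.7% of all genes tested (30.0% with proestrus above and 30.7% with proestrus below). The diestrus libraries differed more from each other than the proestrus libraries did: 2713 genes lay over 2-fold apart in diestrus and 1448 in proestrus. Of the risers, 1512 were called both without diestrus library 1 and without diestrus library 2, and of the fallers 1118. The counts of risers and fallers were 842 and 404 without proestrus library 1, and 1550 and 781 without proestrus library 2. Fallers numbered 1162 and 1159 without metestrus library 1 and library 2. Counts of list members below are therefore followed, in brackets and for each direction in which any differs, by the counts in the fits without proestrus library 1, proestrus library 2, diestrus library 1 and diestrus library 2, in this order. As background for them, the shares of all tested genes that rose in these fits were 4.65, 8.56, 12.6 and 13.5%, and the shares that fell were 2.23, 4.31, 10.8 and 12.1%.

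**Figure D1:**
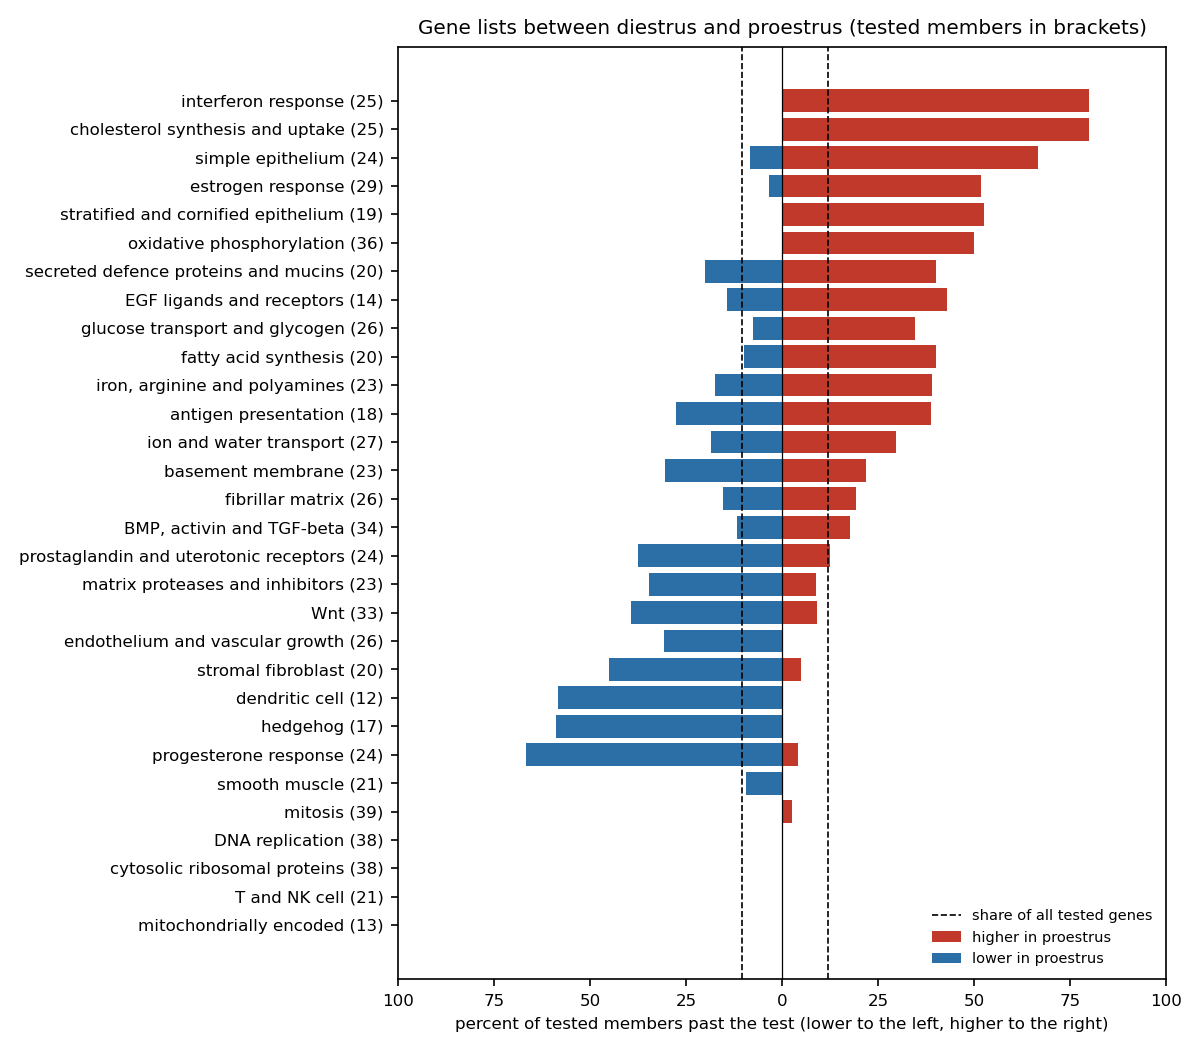
Share of the tested members of 30 gene lists that rose (right) or fell (left) from diestrus to proestrus, with dashed lines at the shares of all tested genes, 12.0% and 10.4%. Interferon and cholesterol genes extend furthest to the right, and progesterone response, hedgehog and dendritic cell genes furthest to the left.

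Genes known as estrogen responses of the uterus were mostly higher in proestrus. Of 29 tested, 15 rose and 1 fell (rising 8, 11, 18 and 16, falling 0, 1, 2 and 4), with a median change of 1.56. Lcn2, which encodes the siderophore-binding protein lipocalin, had 7176 and 3133 CPM in proestrus and 13.1 and 16.9 CPM in diestrus (8.42 ± 0.57, adjusted p = 0.000955). Clca1, a secreted regulator of chloride channels, went from 8.19 and 28.4 CPM in diestrus to 3651 and 1950 CPM in proestrus (7.26 ± 0.76, adjusted p = 0.00245). Every proestrus level of these genes was far above both diestrus levels, and proestrus library 1 was the higher of its pair. Muc1, a membrane mucin of the luminal surface, had 374 and 439 against 18.6 and 48.7 CPM (3.60 ± 0.45), and Ramp3, a partner protein of the calcitonin receptor family, 323 and 338 against 19.9 and 50.2 CPM (3.24 ± 0.41, adjusted p = 0.00377 and 0.00414). Ltf, the iron-binding defence protein lactoferrin, had 5231 and 2557 CPM in proestrus and 24.9 and 313 CPM in diestrus (4.53 ± 1.10, adjusted p = 0.0297), with diestrus library 2 well above library 1. Igf1, a growth factor of the stroma, stood at 415 and 399.6 CPM in proestrus and 442 and 611 CPM in diestrus and did not pass (adjusted p = 0.175). Myc, the growth regulator, was the member that fell, from 141 and 194 to 76.9 and 88.8 CPM (-1.01 ± 0.17, adjusted p = 0.00933). Calls did not pass without proestrus library 1 for Ltf and Myc (adjusted p 0.0730 and 0.117) and without proestrus library 2 or any estrus or metestrus library for Ltf (adjusted p 0.0556 to 0.0621). Conversely, Igf1 passed without diestrus library 1 (adjusted p = 0.0213).

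Genes known as progesterone or glucocorticoid responses moved the other way. Of 24 tested, 16 fell and 1 rose (rising 0, 0, 1 and 1, falling 8, 8, 18 and 16), with a median change of -1.95. Zbtb16, a zinc finger repressor, had 3.44 and 3.87 CPM in proestrus and 132 and 56.9 CPM in diestrus (-4.69 ± 0.45, adjusted p = 0.00193). Fst, which encodes the activin-binding follistatin, fell from 83.4 and 73.5 to 8.46 and 4.32 CPM (-3.62 ± 0.39, adjusted p = 0.00275). The homeobox genes Hoxa11 and Hoxa10, which pattern the uterus and act in its stroma, had 42.6 and 57.1 against 183 and 184 CPM and 78.9 and 113 against 324 and 358 CPM (-1.88 ± 0.17 and -1.83 ± 0.18, adjusted p = 0.00164 and 0.00194). The diestrus libraries were close to each other for Fst and both Hox genes, and further apart for Zbtb16. Fkbp5 and Tsc22d3, targets of both the progesterone and the glucocorticoid receptor, fell by 2.01 ± 0.28 and 2.20 ± 0.40 (adjusted p = 0.00524 and 0.0119), and Hand2, a stromal transcription factor, by 1.65 ± 0.25 (adjusted p = 0.00674). Cyp26a1, which degrades retinoic acid, had 0.103 and 0.199 CPM in proestrus and 106 and 4.29 CPM in diestrus (adjusted p = 0.0201), and Acod1, which makes itaconate, 0.103 and 0.199 against 0.900 and 27.7 CPM (adjusted p = 0.0387). Both were close to 0 in proestrus, and in diestrus they were high in different libraries, Cyp26a1 in library 1 and Acod1 in library 2. Snai2, a transcription factor of mesenchyme, was the member that rose (0.64 ± 0.12, adjusted p = 0.0140). The test was missed without proestrus library 1 for Tsc22d3, Hand2, Cyp26a1, Acod1 and Snai2 (adjusted p 0.0505 to 0.193), without proestrus library 2 for Tsc22d3, Cyp26a1, Acod1 and Snai2 (adjusted p 0.0643 to 0.146) and without diestrus library 2 or any estrus or metestrus library for Acod1 (adjusted p 0.0619 to 0.0735).

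Steroid receptor and coregulator genes were called in shares near those of all tested genes: 9.09% rose and 9.09% fell, beside 12.0% and 10.4%. Pgr had 385 and 337 CPM in proestrus and 236 and 196 CPM in diestrus (0.74 ± 0.14, adjusted p = 0.0144). Esr1 had 443 and 457 against 459.8 and 335 CPM (0.18 ± 0.17, adjusted p = 0.477) and was not called. Nrip1, a corepressor that estrogen induces, rose from 64.1 and 81.7 to 119.5 and 116 CPM (0.69 ± 0.16, adjusted p = 0.0278). Over the list of receptors and coregulators, 2 rose and 2 fell of 22 (rising 0, 1, 2 and 3, falling 1, 2, 2 and 3). Of 15 steroid-metabolising genes, 4 rose and 1 fell (rising 2, 2, 3 and 4, falling 0, 1, 1 and 3). Hsd17b2, which oxidises estradiol to estrone, had 41.3 and 7.20 CPM in proestrus and 0.135 and 0.151 CPM in diestrus (7.35 ± 1.16, adjusted p = 0.00772), with proestrus library 1 well above library 2. Cyp1b1, which hydroxylates estradiol, fell from 19.03 and 27.7 to 0.718 and 1.09 CPM (-4.68 ± 0.67, adjusted p = 0.00547). Calls were lost without proestrus library 1 for Pgr, Nrip1 and Cyp1b1 (adjusted p 0.0507 to 0.130) and without proestrus library 2 or diestrus library 1 for Nrip1 (adjusted p 0.0730 and 0.0880).

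Epithelial genes rose as a group. Of 24 genes of simple epithelium, 16 rose and 2 fell (rising 12, 14, 17 and 18, falling 0, 1, 3 and 2), with a median change of 1.61. Their levels summed to 9142 and 7545 CPM in proestrus and 1815 and 2331 CPM in diestrus. The part of this epithelial rise in the changes of other epithelial genes was not tested. Elf3, an epithelial transcription factor, had 1018 and 814 CPM in proestrus and 34.7 and 34.1 CPM in diestrus (4.73 ± 0.24, adjusted p = 0.000504). The keratins Krt8 and Krt7 rose by 2.57 ± 0.31 and 3.33 ± 0.40, the cadherin Cdh1 by 1.67 ± 0.26, and the claudin Cldn7 by 2.82 ± 0.25 (adjusted p from 0.00155 to 0.00749). Grhl2, a regulator of epithelial junctions, rose by 1.25 ± 0.13 and Epcam by 2.09 ± 0.19 (adjusted p = 0.00238 and 0.00174), so members of the list changed by unequal amounts. The exceptions were Lgr5, a receptor for R-spondins found in immature epithelium, which fell from 5.40 and 5.35 to 0.103 and 0.397 CPM (-4.39 ± 0.70, adjusted p = 0.00812), and Msx1, a homeobox gene, at 50.9 and 44.3 against 75.7 and 338 CPM (-2.12 ± 0.61, adjusted p = 0.0490). Single calls ended without proestrus library 1 for Lgr5 and Msx1 (adjusted p 0.0511 and 0.183) and without proestrus library 2 or any estrus or metestrus library for Msx1 (adjusted p 0.0843 to 0.179).

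Genes of cornified envelopes were among the largest rises. Of 19 tested genes of stratified or cornified epithelium, 10 rose and 0 fell (rising 6, 6, 9 and 9, falling 0, 0, 1 and 0), and 8 more had too few counts to be tested. Sfn, an epithelial cell cycle regulator, had 254 and 210 CPM in proestrus and 3.10 and 2.92 CPM in diestrus (6.26 ± 0.26, adjusted p = 0.000422). Serpinb5, an epithelial serpin, had 33.4 and 24.0 against 0.360 and 0.353 CPM (6.31 ± 0.28, adjusted p = 0.000422), and Sprr1a, a precursor of the cornified envelope, 142 and 106 against 0.990 and 0.202 CPM (7.65 ± 0.68, adjusted p = 0.00159). Padi1, which converts arginine residues to citrulline, had 2326 and 1365 CPM in proestrus and 56.0 and 12.0 CPM in diestrus (5.76 ± 0.78, adjusted p = 0.00473). The genes of this list that define stratified epithelium were low: Krt5 and Krt14, keratins of its basal layer, had at most 1.84 and 3.82 CPM in a library, the involucrin gene Ivl at most 0.695 CPM, and the loricrin gene Lor 0.872 and 1.14 against 1.62 and 3.88 CPM. Sprr2b had 847 and 255 CPM in proestrus and 0.0450 and 0.908 CPM in diestrus (10.21 ± 1.51, adjusted p = 0.00612) and Sprr2f 5400 and 2231 against 9.09 and 195 CPM (5.22 ± 1.32, adjusted p = 0.0334). The Sprr2 genes are near copies of each other, so reads may be split between them. Calls did not pass without any estrus or metestrus library or either proestrus library for Sprr2f (adjusted p 0.0592 to 0.125). Conversely, Lor passed without diestrus library 1 (adjusted p = 0.0259).

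Secreted defence proteins split in direction. Of 20 tested, 8 rose and 4 fell (rising 5, 7, 8 and 9, falling 2, 3, 4 and 6). Beside Lcn2 and Ltf, the rises included Pigr, the receptor that carries polymeric antibodies across epithelium (916 and 542 against 217 and 94.2 CPM, 2.23 ± 0.43, adjusted p = 0.0150), and Muc20, a membrane mucin (4.31 ± 0.66, adjusted p = 0.00691). Bpifb5, of the family of lipid-binding defence proteins, fell to near absence, with 1.79 and 2.08 CPM in proestrus and 98.9 and 76.7 CPM in diestrus (-5.50 ± 0.24, adjusted p = 0.000422). Its relative Bpifb1 had no count in either proestrus library against 3.46 and 2.27 CPM in diestrus, which is at least 38.3-fold lower against a floor of 3 counts over both libraries (adjusted p = 0.00380). Lyz1 and Lyz2, the lysozymes, fell by 3.79 ± 0.61 and 1.39 ± 0.29 (adjusted p = 0.00833 and 0.0192), and as near copies they may share reads. Among gland genes, Lif, the leukaemia inhibitory factor required for implantation, rose from 4.68 and 2.98 to 54.5 and 29.1 CPM (3.44 ± 0.58, adjusted p = 0.00911), and Cxcl17, a mucosal chemokine, from 11.5 and 9.58 to 284 and 156 CPM (4.39 ± 0.37, adjusted p = 0.00153). Foxa2, the transcription factor that marks uterine glands, fell from 14.3 and 17.4 to 8.00 and 5.86 CPM (-1.19 ± 0.27, adjusted p = 0.0231). In the gland list, 4 rose and 3 fell of 16 (rising 3, 4, 5 and 4, falling 2, 1, 4 and 6). The test was missed without proestrus library 1 for Pigr, Lyz1, Lyz2 and Foxa2 (adjusted p 0.0631 to 0.111), without proestrus library 2 for Lyz2 and Foxa2 (adjusted p 0.0831 and 0.108) and without diestrus library 2 or either metestrus library for Foxa2 (adjusted p 0.0506 and 0.0532).

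Ion and water transport genes changed in both directions, 8 up and 5 down of 27 tested (rising 5, 7, 9 and 8, falling 1, 2, 6 and 5). Cftr, the chloride channel of secretory epithelium, had 127 and 108 CPM in proestrus and 4.23 and 12.5 CPM in diestrus (3.81 ± 0.46, adjusted p = 0.00355). Slc34a2, a phosphate transporter, rose by 4.88 ± 0.62, and the carbonic anhydrase gene Car2 by 3.13 ± 0.52 (adjusted p = 0.00397 and 0.00868). The sodium channel subunit Scnn1a, which serves fluid absorption, had 2.56 and 2.13 against 4.81 and 31.8 CPM (-2.96 ± 0.81, adjusted p = 0.0430), and the water channel Aqp1, known from vessels and stroma, 207 and 178 against 745 and 374 CPM (-1.54 ± 0.30, adjusted p = 0.0159). Secretory Cftr and absorptive Scnn1a thus changed in opposite directions in the same libraries. Calls were lost without either proestrus library for Scnn1a and Aqp1 (adjusted p 0.0807 to 0.177) and without diestrus library 2 or any estrus or metestrus library for Scnn1a (adjusted p 0.0704 to 0.0796).

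Most genes of the cholesterol pathway rose. Of 25 genes, 20 rose and none fell (rising 12, 15, 20 and 22), with a median change of 1.51. Hmgcs1, an early synthase of the pathway, had 139 and 137 CPM in proestrus and 46.8 and 37.8 CPM in diestrus (1.70 ± 0.18, adjusted p = 0.00238). The later enzymes Mvd, Tm7sf2 and Nsdhl rose by 2.61 ± 0.28, 2.25 ± 0.22 and 1.51 ± 0.17 (adjusted p from 0.00200 to 0.00298). The libraries of a stage were close for Hmgcs1 and the stages did not overlap. A sterol regulatory element spelled TCACNCCAC was found, on either strand, in 5% of the 20 promoter windows of the list and in 1.19% of those of all tested genes, where a window runs from 250 bases before to 50 after a RefSeq start. The single match was in Hmgcs1 (GRCm38.p6, chr13:119690189-119690247, plus strand), shown here with the match in capitals because it is the classic element of this pathway.

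Hmgcs1: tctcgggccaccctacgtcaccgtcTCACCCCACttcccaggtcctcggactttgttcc

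Fatty acid synthesis genes rose less uniformly, with 8 up and 2 down of 20 (rising 2, 7, 9 and 10, falling 1, 2, 3 and 3). Acsl3, which activates fatty acids, rose by 1.44 ± 0.16, whereas the desaturases Fads2 and Fads1 changed by -1.03 ± 0.12 and -0.68 ± 0.14 (adjusted p from 0.00277 to 0.0201). Among 26 genes of glucose and glycogen use, 9 rose and 2 fell (rising 2, 9, 7 and 8, falling 0, 0, 3 and 1). Among them, the glycolytic enzymes Ldha and Eno1 had 1324 and 1080 against 317 and 444 CPM and 629.9 and 491 against 193 and 218 CPM (1.66 ± 0.20 and 1.45 ± 0.17, adjusted p = 0.00362 and 0.00326). Pygm, the muscle glycogen phosphorylase, fell by 1.02 ± 0.22 (adjusted p = 0.0205). In the respiratory chain, 18 of 36 nuclear genes rose and 0 fell, by small amounts, with a median change of 0.39 (rising 3, 4, 14 and 18, falling 0, 0, 1 and 0). Ndufa4 rose by 1.05 ± 0.13 and the succinate dehydrogenase subunit Sdhd by 0.66 ± 0.09 (adjusted p = 0.00380 and 0.00507). Of 30 genes of endoplasmic reticulum folding, 5 rose (rising 0, 1, 14 and 3, falling 0, 0, 0 and 1), among them the translocon subunit Sec61b (0.85 ± 0.15, adjusted p = 0.0110). Single calls ended without proestrus library 1 for Fads1, Pygm and Sec61b (adjusted p 0.0667 to 0.128) and without proestrus library 2 for Pygm (adjusted p 0.0585).

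Iron and arginine genes held 2 of the 10 smallest p-values. Slc40a1 (ferroportin, the exporter of iron from cells) had 641 and 532 CPM in proestrus and 31.6 and 26.4 CPM in diestrus (4.34 ± 0.18, adjusted p = 0.000422). The transferrin receptor Tfrc, which brings iron in, rose from 44.6 and 34.7 to 107 and 121 CPM (1.52 ± 0.23, adjusted p = 0.00693). Arginine metabolism changed enzyme by enzyme. Ass1, which forms argininosuccinate, had 164 and 154 CPM in proestrus and 16.7 and 13.8 CPM in diestrus (3.38 ± 0.13, adjusted p = 0.000422), whereas Asl, which cleaves it to arginine, had 26.9 and 28.4 against 93.3 and 104 CPM (-1.83 ± 0.15, adjusted p = 0.00126). The cytosolic arginase Arg1 had 1087 and 273 CPM in proestrus and 1.03 and 1.97 CPM in diestrus (8.83 ± 0.89, adjusted p = 0.00224), whereas the mitochondrial Arg2 fell by 2.38 ± 0.30 (adjusted p = 0.00408). In this list 9 of 23 rose and 4 fell (rising 5, 8, 7 and 11, falling 2, 2, 4 and 4).

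Most interferon-stimulated genes rose. These genes are switched on by interferons through transcription factors such as Stat2 and Irf9, which bind a response element in their promoters, and many of their products restrict viruses. Of 25 tested, 20 rose and none fell (rising 16, 20, 21 and 20), with a median change of 2.19. The response element, searched on both strands as a pair of GAAA separated by any 2 bases, was found in 13 of the 22 promoter windows of the list (59.1%), in 5.04% of the windows of all risers, in 2.24% of those of all fallers and in 3.23% of those of all tested genes. The stretches before the start of 5 of the risers are shown, 5′ to 3′ on the strand of the gene with every match in capitals and overlapping matches run together, because the element recurs in them in both orientations. The stretch of Isg15 holds 3 matches, that of Oas1a 2, that of Ifit1 2, and those of Stat2 and Gbp2 1 and 1. They lie at chr4:156200850-156200909, minus strand (Isg15), chr5:120907526-120907564, minus strand (Oas1a), chr10:128270251-128270310, plus strand (Stat2), chr19:34640779-34640838, plus strand (Ifit1) and chr3:142620579-142620638, plus strand (Gbp2) in GRCm38.p6.

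Isg15: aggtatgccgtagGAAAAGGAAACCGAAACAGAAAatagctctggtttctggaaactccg
Oas1a: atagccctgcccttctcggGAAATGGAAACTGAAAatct
Stat2: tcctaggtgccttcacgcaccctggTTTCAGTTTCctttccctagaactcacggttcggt
Ifit1: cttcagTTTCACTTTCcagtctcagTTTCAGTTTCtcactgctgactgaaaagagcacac
Gbp2: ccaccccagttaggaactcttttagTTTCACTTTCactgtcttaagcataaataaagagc

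Of these genes, Isg15, a ubiquitin-like protein that is attached to other proteins, had 99.7 and 76.0 CPM in proestrus and 5.13 and 7.87 CPM in diestrus (3.76 ± 0.44, adjusted p = 0.00330). Oas1a, which senses double-stranded RNA, had 117 and 87.3 against 7.33 and 10.4 CPM (3.52 ± 0.29, adjusted p = 0.00133), and the related Oas2 158 and 117 against 5.26 and 8.47 CPM (4.33 ± 0.35, adjusted p = 0.00126). The promoter stretch of the neighbouring Oas1g begins with the same letters as that of Oas1a, and such near copies may share reads. Mx1, a GTPase that blocks viral replication, had 28.6 and 28.1 CPM in proestrus and 1.08 and 1.51 CPM in diestrus (4.45 ± 0.28, adjusted p = 0.000918). The factors Stat2, Irf9 and Irf7 rose by 2.08 ± 0.27, 1.49 ± 0.18 and 3.87 ± 0.48 (adjusted p from 0.00350 to 0.00414). The chemokines Cxcl9 and Cxcl10, which interferon gamma induces, had 0.769 and 0.397 against 0.900 and 1.87 CPM and 4.67 and 0.596 against 1.12 and 1.66 CPM and did not pass (adjusted p = 0.224 and 0.523). Proestrus exceeded diestrus in both libraries for each riser. The source of the interferon rise was not tested. Genes of T and NK cells were low, with a mean log2 CPM of 1.10 and 1.20 in proestrus and 1.56 and 1.25 in diestrus. A lack of calls among them therefore says little about these cells. T and NK cells are a source of interferon gamma, and of 21 of their genes none was called (4 at an unadjusted p under 0.05, 0 by DESeq2 and 0 by limma-voom, rising 0, 0, 0 and 1, falling 0, 0, 0 and 1).

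**Figure D2:**
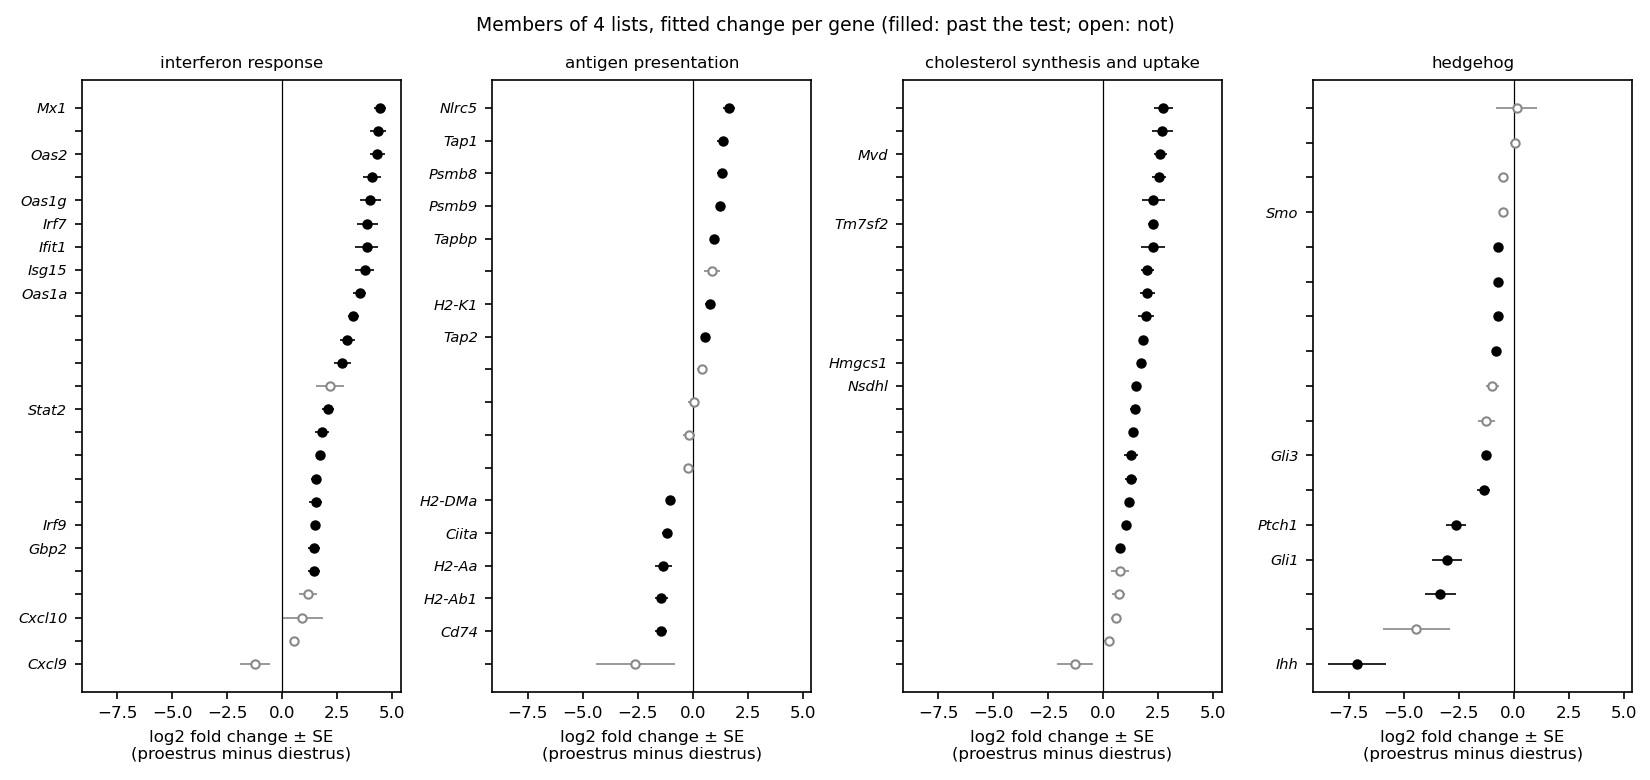
Log2 fold change of proestrus over diestrus with its SE for the tested genes of 4 lists, filled where adjusted p was under 0.05 and labelled where the gene is named in the text. Interferon and cholesterol genes lie to the right of 0 with few exceptions, antigen presentation genes lie on both sides and most hedgehog genes lie to the left.

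Antigen presentation genes that were called split by class, while 6 members of the list, from both classes, did not pass. Class I molecules present peptides of the cell's own proteins and class II molecules peptides of ingested material. Of 18 genes, 7 rose and 5 fell (rising 1, 5, 6 and 5, falling 1, 2, 4 and 4). The risers were the class I molecule H2-K1 and the class I peptide machinery, the immunoproteasome subunits Psmb9 and Psmb8, the peptide transporters Tap1 and Tap2, tapasin (Tapbp) and the class I activator Nlrc5. Psmb9 had 32.0 and 34.2 CPM in proestrus and 11.3 and 16.3 CPM in diestrus (1.26 ± 0.18, adjusted p = 0.00585), and Tap1 and Nlrc5 rose by 1.36 ± 0.24 and 1.64 ± 0.27 (adjusted p = 0.0110 and 0.00883). The fallers were the class II chains H2-Aa and H2-Ab1, the class II chaperones Cd74 and H2-DMa and the class II activator Ciita. Cd74 had 216 and 253 CPM in proestrus and 654 and 619.8 CPM in diestrus (-1.44 ± 0.26, adjusted p = 0.0118), and H2-Ab1 and Ciita fell by 1.42 ± 0.29 and 1.18 ± 0.22 (adjusted p = 0.0177 and 0.0138). Dendritic cell genes, which mark professional class II cells, fell in 7 of 12 and rose in none (falling 5, 3, 8 and 5). Their levels summed to 139 and 153 CPM in proestrus and 194 and 321 CPM in diestrus, and their part in the class II fall was not tested. Zbtb46, the transcription factor of conventional dendritic cells, went from 22.4 and 20.6 to 7.79 and 9.33 CPM (-1.33 ± 0.16, adjusted p = 0.00377), and the integrin gene Itgax from 10.7 and 12.5 to 4.82 and 3.38 CPM (-1.50 ± 0.24, adjusted p = 0.00849). Calls did not pass without proestrus library 1 for Tap1, Nlrc5, Cd74, H2-Ab1 and Ciita (adjusted p 0.0569 to 0.110) and without proestrus library 2 for H2-Ab1 and Ciita (adjusted p 0.0704 and 0.0714).

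Other blood cell genes gave no single direction. The macrophage and monocyte list had 3 risers and 3 fallers among 21 (rising 0, 4, 2 and 3, falling 2, 1, 4 and 2), and its defining genes Adgre1 and Csf1r stood at 33.2 and 26.9 against 35.2 and 48.9 CPM and 68.6 and 41.2 against 78.7 and 87.7 CPM without passing (adjusted p = 0.106 and 0.125). Among granulocyte and mast cell genes, 4 rose and 5 fell of 22 (rising 2, 3, 4 and 4, falling 0, 0, 4 and 4). The risers were the neutrophil marker Ly6g (6.51 and 5.11 against 0.135 and 0.202 CPM, 5.07 ± 0.54, adjusted p = 0.00261) and the chemokines Cxcl5, Ccl11 and Cxcl1. Other genes that neutrophils are known for did not pass: Retnlg had 11.7 and 13.5 against 11.9 and 35.0 CPM and Csf3r 5.69 and 4.12 against 2.97 and 15.1 CPM, each with its highest level in diestrus library 2, and neither these nor Cxcr2, Il1r2, S100a8, S100a9 and Mpo passed (adjusted p from 0.163 to 0.889). Ccl11, which attracts eosinophils, had 186 and 120.5 against 15.1 and 7.01 CPM (3.79 ± 0.69, adjusted p = 0.0121), while the eosinophil granule gene Epx had 1 count over the 4 libraries. The eosinophil receptor and granule genes that were tested had highest levels of 4.79 to 6.61 CPM, in diestrus. In proestrus their highest levels were 1.59 to 2.33 CPM. Of the fallers, 4 (Cpa3, Cma1, Mcpt4 and Tpsb2) are mast cell proteases, of which Cpa3 had 0.923 and 0.744 against 11.7 and 3.53 CPM (-3.19 ± 0.65, adjusted p = 0.0175), with library 1 well above library 2 in diestrus. The test was missed without proestrus library 1 for Ccl11 and Cpa3 (adjusted p 0.0608 and 0.0989) and without proestrus library 2 for Cpa3 (adjusted p 0.0888). Conversely, Adgre1 and Csf3r passed without diestrus library 1 (adjusted p = 0.0177 and 0.00544), Csf1r passed without proestrus library 1 (adjusted p = 0.0425) and Cxcr2 passed without diestrus library 2 (adjusted p = 0.0354).

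The hedgehog ligand gene Ihh and the target genes Gli1 and Ptch1 were lower in proestrus. Ihh, the ligand, is made by the uterine epithelium under progesterone and binds Ptch1 on stromal cells, which frees Smo to act on the Gli factors, and Gli1 and Ptch1 are textbook targets. Of 17 genes, 10 fell and none rose (rising 0, 0, 0 and 1, falling 1, 1, 10 and 12), with a median change of -0.96. Ihh had 0.154 and 0.546 CPM in proestrus and 8.46 and 92.4 CPM in diestrus (-7.14 ± 1.31, adjusted p = 0.0127). The targets Gli1 and Ptch1 had 10.2 and 18.1 against 52.3 and 178 CPM and 29.0 and 32.9 against 98.2 and 279 CPM, and fell by 3.03 ± 0.67 and 2.61 ± 0.45 (adjusted p = 0.0219 and 0.0104). The ligand and both targets were higher in diestrus library 2 than in library 1, and both were above proestrus. The factor Gli3, at 13.2 and 13.4 against 30.6 and 33.2 CPM, had close libraries (-1.26 ± 0.12, adjusted p = 0.00205). Smo itself had 150.3 and 164 against 185 and 253 CPM and did not pass (adjusted p = 0.0996). Calls were lost without either proestrus library for Ihh, Gli1 and Ptch1 (adjusted p 0.0513 to 0.138) and without either metestrus library for Gli1 (adjusted p 0.0505 and 0.0507). Conversely, Smo passed without diestrus library 1 (adjusted p = 0.0216).

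Wnt genes fell more often than they rose, 13 down and 3 up of 33 (rising 1, 1, 4 and 5, falling 6, 9, 16 and 14). Among ligands, Wnt4, of the stroma and epithelium, and Wnt7a, of the luminal epithelium, rose by 1.80 ± 0.24 and 2.12 ± 0.54, whereas Wnt2 and Wnt6 fell by 2.56 ± 0.38 and 3.27 ± 0.69 (adjusted p from 0.00461 to 0.0342). Wnt11 had 1 count in proestrus against 3.15 and 24.8 CPM in diestrus, a ratio of 529 with a 95% interval of 94.5 to 20927 for counting error only (adjusted p = 0.00833). The receptor Fzd1 had 61.3 and 69.1 CPM in proestrus and 209 and 199 CPM in diestrus (-1.64 ± 0.11, adjusted p = 0.000918). The antagonists Sfrp1, Sfrp2 and Dkk3 fell by 1.78 ± 0.22, 2.63 ± 0.37 and 2.29 ± 0.33 (adjusted p from 0.00358 to 0.00581), and the pathway's nuclear factor Lef1 had 1.95 and 2.48 against 10.9 and 42.1 CPM (-3.58 ± 0.64, adjusted p = 0.0114). Ligands, receptors and inhibitors were all among the fallers. Single calls ended without proestrus library 1 for Wnt7a, Wnt6, Wnt11 and Lef1 (adjusted p 0.0689 to 0.119), without proestrus library 2 for Wnt7a and Lef1 (adjusted p 0.0551 and 0.102) and without any estrus or metestrus library for Wnt7a (adjusted p 0.0545 to 0.0676).

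In the EGF family, the receptor gene Egfr fell and the receptor genes Erbb2 and Erbb3 rose. Egfr went from 89.0 and 97.7 to 45.5 and 37.9 CPM (-1.16 ± 0.13, adjusted p = 0.00291), whereas Erbb2 and Erbb3 rose by 1.20 ± 0.19 and 1.34 ± 0.25 (adjusted p = 0.00740 and 0.0133). The remaining receptor, Erbb4, had 0.154 and 0.0993 against 8.77 and 0 CPM and did not pass (adjusted p = 0.172), with nearly all of its signal in diestrus library 1. The ligand Nrg1 had 44.8 and 60.4 against 10.9 and 7.77 CPM (2.49 ± 0.25, adjusted p = 0.00211), and Lrig1, a brake on these receptors, 198 and 229 against 55.8 and 59.6 CPM (1.89 ± 0.12, adjusted p = 0.000918). In all, 6 rose and 2 fell of 14 (rising 4, 6, 6 and 6, falling 1, 2, 3 and 5). Of 34 genes of the BMP, activin and TGF-beta pathways, 6 rose and 4 fell (rising 2, 5, 7 and 7, falling 3, 4, 7 and 8). The antagonists Nog and Chrd fell by 3.81 ± 0.57 and 1.89 ± 0.29 (adjusted p = 0.00651 and 0.00744). Inhbb, a subunit of activin and inhibin, had 970.1 and 1020 CPM in proestrus and 161 and 15.7 CPM in diestrus (3.49 ± 0.95, adjusted p = 0.0427), with diestrus library 1 well above library 2. In the IGF axis 3 rose and 6 fell of 21 (rising 2, 3, 3 and 3, falling 0, 1, 7 and 9), led by the protease Htra1 (483 and 488 against 109.6 and 128 CPM, 2.03 ± 0.14, adjusted p = 0.00101) and by Igfbp3, a carrier of IGFs, at 85.9 and 54.5 against 813 and 230 CPM (-2.89 ± 0.60, adjusted p = 0.0188). Calls did not pass without proestrus library 1 for Erbb2, Erbb3, Chrd, Inhbb and Igfbp3 (adjusted p 0.0502 to 0.129), without proestrus library 2 for Inhbb and Igfbp3 (adjusted p 0.0968 and 0.106) and without any estrus or metestrus library for Inhbb (adjusted p 0.0709 to 0.0815). Conversely, Erbb4 passed without diestrus library 2 (adjusted p = 0.0152).

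Extracellular matrix genes changed in both directions. The shares that rose and fell were 19.2 and 15.4% for fibrillar matrix, 21.7 and 0% for collagen-modifying and 21.7 and 30.4% for basement membrane genes. They were 8.7 and 34.8% for proteases and inhibitors and 13.3 and 13.3% for hyaluronan genes. Of all tested genes 12.0% rose and 10.4% fell, so the fibrillar matrix and hyaluronan shares were not far from ordinary. Of 26 fibrillar matrix genes 5 rose and 4 fell (rising 2, 2, 6 and 7, falling 3, 1, 6 and 5). The microfibril gene Fbln2 had 649 and 482 CPM in proestrus and 148 and 125 CPM in diestrus (2.05 ± 0.20, adjusted p = 0.00204), and the collagen VI chain Col6a3 rose from 853 and 526 to 1864 and 2115 CPM (1.53 ± 0.27, adjusted p = 0.0114). Col12a1, a collagen that coats fibrils, fell by 1.92 ± 0.22 and periostin, Postn, by 2.31 ± 0.56 (adjusted p = 0.00313 and 0.0294). Among 23 collagen-modifying genes, 5 rose and none fell (rising 2, 3, 5 and 6, falling 0, 0, 2 and 0). Plod2, which hydroxylates collagen lysines, had 232 and 262 against 75.3 and 82.4 CPM, and Lox, which crosslinks fibres, 426 and 416 against 124 and 62.6 CPM (1.65 ± 0.12 and 2.17 ± 0.30, adjusted p = 0.00124 and 0.00515). In basement membranes, 5 rose and 7 fell of 23 (rising 3, 3, 5 and 5, falling 3, 3, 6 and 10). The epithelial laminin chain Lamb3 rose by 2.82 ± 0.23, the collagen IV chains Col4a3 and Col4a4 by 2.70 ± 0.54 and 1.88 ± 0.45, and the chains Col4a5 and Col4a6 fell by 1.45 ± 0.16 and 2.65 ± 0.25 (adjusted p from 0.00140 to 0.0288). Among matrix proteases and inhibitors, 8 of 23 fell and 2 rose (rising 1, 2, 3 and 2, falling 2, 2, 7 and 9). Mmp2, a gelatinase, had 206 and 224 CPM in proestrus and 646 and 741 CPM in diestrus (-1.69 ± 0.13, adjusted p = 0.00124), and Plau, urokinase, rose from 29.1 and 14.02 to 206 and 112 CPM (2.88 ± 0.42, adjusted p = 0.00571). Among hyaluronan genes, 2 rose and 2 fell of 15 (rising 1, 1, 2 and 4, falling 0, 1, 3 and 4), with the receptor Cd44 down by 1.30 ± 0.21 (adjusted p = 0.00868). The test was missed without proestrus library 1 for Col6a3, Postn, Col4a3, Col4a4 and Cd44 (adjusted p 0.0506 to 0.145), without proestrus library 2 for Postn, Col4a3 and Col4a4 (adjusted p 0.0536 to 0.123) and without diestrus library 1 or either metestrus library for Col4a4 (adjusted p 0.0584 to 0.0786). The same held without either estrus library for Postn (adjusted p 0.0558 and 0.0562).

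Stromal and vascular genes were more often lower in proestrus. Of 20 stromal fibroblast genes, 9 fell and 1 rose (rising 0, 0, 1 and 1, falling 2, 4, 7 and 11), with Pdgfra going from 541 and 472 to 218 and 306 CPM (-0.95 ± 0.23, adjusted p = 0.0285). Of 26 endothelial and angiogenic genes, 8 fell and none rose (rising 0, 0, 1 and 0, falling 2, 4, 7 and 14). The VEGF receptors Kdr and Flt4 fell by 0.76 ± 0.16 and 0.96 ± 0.14, and the ligands Vegfb and Vegfc by 0.88 ± 0.13 and 1.46 ± 0.26 (adjusted p from 0.00633 to 0.0177), while Vegfa had 91.8 and 71.2 against 130.4 and 79.9 CPM and did not pass (adjusted p = 0.478). The epithelial genes rose in the same libraries, and their part in these falls was not tested. Smooth muscle genes differed between the diestrus libraries: their sum was 27867 CPM in library 1 and 11934 CPM in library 2, on either side of proestrus with 17923 and 13451 CPM. With all libraries 2 of 21 fell (rising 0, 0, 3 and 0, falling 1, 1, 2 and 12), against 12 without diestrus library 2 and, without diestrus library 1, 2 that fell and 3 that rose. Of receptors and enzymes that control contraction, 3 rose and 9 fell of 24 (rising 1, 2, 3 and 4, falling 4, 6, 8 and 11). The prostaglandin E receptors Ptger3 and Ptger2 had 16.1 and 13.9 against 113 and 92.9 CPM and 1.38 and 1.49 against 7.69 and 8.78 CPM (-2.78 ± 0.19 and -2.51 ± 0.24, adjusted p = 0.000955 and 0.00186). The oxytocin receptor Oxtr moved the other way, at 371 and 232 against 81.7 and 16.4 CPM (2.62 ± 0.73, adjusted p = 0.0455), and the relaxin receptor Rxfp1 fell by 1.38 ± 0.30 (adjusted p = 0.0206). Calls were lost without proestrus library 1 for Pdgfra, Kdr, Vegfb, Vegfc, Oxtr and Rxfp1 (adjusted p 0.0561 to 0.176), without proestrus library 2 for Kdr, Oxtr and Rxfp1 (adjusted p 0.0539 to 0.0831) and without diestrus library 1 for Pdgfra (adjusted p 0.0592). The same held without either estrus library for Oxtr (adjusted p 0.0660 and 0.0666) and without either metestrus library for Pdgfra and Oxtr (adjusted p 0.0505 to 0.0841).

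Cell division genes depended on which diestrus library was used. Of 39 mitosis genes, 1 rose with all libraries (rising 0, 0, 1 and 30), and of 38 DNA replication genes none was called (0 at an unadjusted p under 0.05, 0 by DESeq2 and 0 by limma-voom). Of these, 6 rose without diestrus library 2, with a median change of 0.77, and 1 fell without diestrus library 1, with a median of -0.24. The mitosis genes summed to 850 and 1789 CPM in proestrus and to 256 and 996 CPM in diestrus, so that diestrus library 2 exceeded proestrus library 1. Without diestrus library 2, 30 of them rose, with a median change of 2.40, and in the fit without diestrus library 1, 1 rose, with a median of 0.40. The proliferation marker Mki67 had 53.0 and 103 CPM in proestrus and 20.4 and 66.2 CPM in diestrus (0.85 ± 0.66, adjusted p = 0.398), and the topoisomerase Top2a 63.1 and 152 against 20.02 and 95.1 CPM (0.90 ± 0.74, adjusted p = 0.420). The helicase subunit Mcm6, needed before replication starts, had 65.4 and 96.8 against 53.7 and 104 CPM (adjusted p = 0.9504), with library 2 above library 1 in both stages. Some regulators of the start of the cycle passed: Cdkn1c, an inhibitor of cyclin-dependent kinases, fell from 24.7 and 47.2 to 7.13 and 8.49 CPM (-2.20 ± 0.37, adjusted p = 0.00949), Rbl2, a repressor of the pocket protein family, fell by 1.06 ± 0.09 and the cyclin Ccnd3 rose by 0.63 ± 0.11 (adjusted p = 0.00159 and 0.0121). Over the list of these regulators 8% rose and 16% fell, beside 12.0% and 10.4% of all tested genes. Its median change was 0.06. In that list 2 rose and 4 fell of 25 (rising 0, 1, 4 and 7, falling 1, 3, 4 and 5). Of 35 ribosome biogenesis genes 2 fell and none rose (rising 0, 0, 0 and 1, falling 0, 0, 1 and 1), and of 38 ribosomal protein genes none was called, against 8 that rose without diestrus library 1 and none in the other 3 of these fits (with all libraries 4 at an unadjusted p under 0.05, 5 by DESeq2 and 0 by limma-voom). Single calls ended without proestrus library 1 for Cdkn1c and Ccnd3 (adjusted p 0.0747 and 0.0805). Conversely, Top2a passed without diestrus library 2 (adjusted p = 0.0363).

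**Figure D3:**
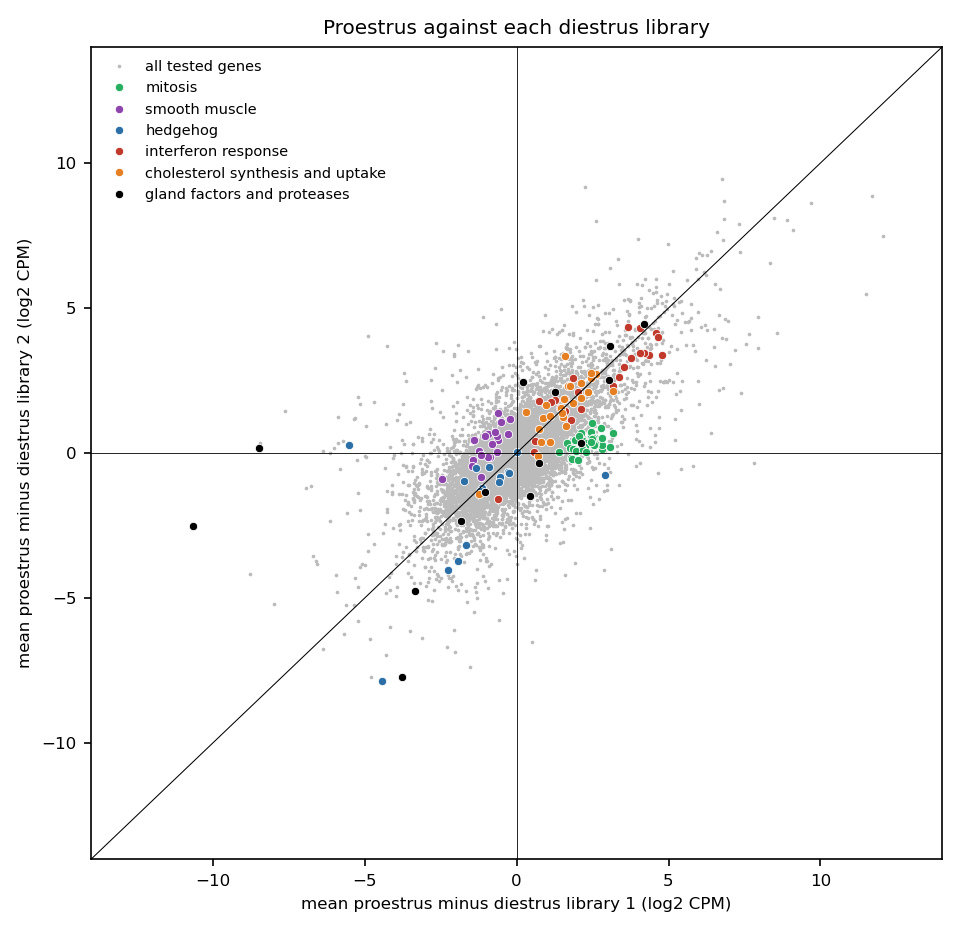
Difference in log2 CPM between the mean of proestrus and diestrus library 1 (horizontal) or diestrus library 2 (vertical) for the tested genes within the axis limits, with 6 lists coloured. The gland genes Prss28 and Prss29 lie beyond the left limit and are not shown. Interferon and cholesterol genes lie along the diagonal, whereas mitosis genes lie to the right of it near 0 on the vertical axis, and a gland gene far to the left lies near 0 on the vertical axis.

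Of the 10 genes with the widest gaps between the diestrus libraries, 9 were higher in library 1. They were Prss28, Prss29, Klk1, Aqp8, Abcb1b, Prap1, Spink1, Ces2b, 5330417C22Rik and BC048679. Prss28 and Prss29, serine proteases secreted by the uterine glands, had 2039 and 0 and 5509 and 0.0504 CPM in diestrus and at most 0.103 CPM in proestrus (adjusted p = 0.114 and adjusted p = 0.105), so neither passed the test although both were abundant in diestrus library 1. Klk1, tissue kallikrein, had 1.44 and 0.447 CPM in proestrus and 326 and 0.706 CPM in diestrus (adjusted p = 0.0649), Aqp8, a water channel, 0.564 and 0.893 against 161 and 0.202 CPM (adjusted p = 0.0771), and Abcb1b, a drug exporter, 1.13 and 2.04 against 563 and 1.16 CPM (adjusted p = 0.0629). Prap1, a secreted acidic protein, stood at 144 and 41.5 against 2301 and 4.59 CPM, between the diestrus libraries in proestrus. The exception among the 10 widest gaps was BC048679, at 16.5 and 61.7 against 0.0450 and 40.1 CPM. Ihh and its targets, by contrast, were higher in library 2. On the first 3 principal components (main axes of variation) of log2 CPM over all 8 libraries, diestrus library 1 lay at 50.89, 60.7 and 71.46. Diestrus library 2 lay at 69.58, 27.23 and -28.11. The metestrus libraries lay at 65.09, -15.52 and -21.43 and at 68.66, -14.63 and -29.67, nearer to diestrus library 2 than diestrus library 1 was. The labels place both libraries in diestrus, and what sets them apart was not tested. Fitted without diestrus library 2, the change was -4.63 for Prap1, -4.26 for Ces2b and -5.9 for 5330417C22Rik. It was -7.77 for Aqp8 and -8.47 for Abcb1b, but 9.59 for BC048679. Without diestrus library 1, Prap1, Ces2b and 5330417C22Rik changed by 4.32, 3.76 and 1.25, so their direction was reversed. Aqp8 and Abcb1b changed by 1.81 and 0.431 in that fit. Prss28, Prss29 and Klk1 were lower in both proestrus libraries than in diestrus library 1.

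Other lists can be given by their counts. The clock list had a median change of -0.31 although only rises were called. These were 21.1% of its genes, beside 12.0% of all tested genes. The tested fat cell genes had a mean log2 CPM of 2.46 in proestrus library 1 and -0.14 in library 2, against -0.08 and -0.74 in diestrus. Of clock genes 4 rose and 0 fell of 19 (rising 1, 2, 3 and 3, falling 0, 0, 0 and 8), led by Bhlhe40, a repressor that also responds to hormones (399.9 and 316 against 28.6 and 39.3 CPM, 3.40 ± 0.23, adjusted p = 0.000955), while the core clock gene Arntl had 22.7 and 23.4 against 41.9 and 29.1 CPM (adjusted p = 0.0578). Of immediate early genes 4 rose and 1 fell of 21 (rising 2, 3, 6 and 3, falling 1, 0, 2 and 1): Fos and Junb had 74.2 and 58.2 against 10.8 and 12.0 CPM and 118 and 119 against 33.5 and 33.0 CPM (2.54 ± 0.42 and 1.83 ± 0.23, adjusted p = 0.00868 and 0.00410), whereas Egr1 stood at 12.5 and 14.9 against 43.9 and 55.2 CPM (adjusted p = 0.0683). Heat shock genes gave no call among 12 (0 at an unadjusted p under 0.05, 0 by DESeq2 and 0 by limma-voom, falling 0, 0, 0 and 1). Complement genes rose in 4 and fell in 1 of 22 (rising 2, 3, 5 and 3, falling 0, 0, 1 and 2), with factor B, Cfb, at 29.8 and 13.4 against 0.180 and 0.857 CPM (5.40 ± 0.64, adjusted p = 0.00333). B and plasma cell genes rose in 2 of 10 (rising 2, 2, 3 and 2, falling 0, 0, 0 and 3), and one of them, Sdc1, is also an epithelial gene (347 and 344 against 136 and 151 CPM, adjusted p = 0.00214). Nerve and Schwann cell genes rose in 2 and fell in 1 of 13 (rising 2, 2, 3 and 3, falling 0, 0, 1 and 1), with the neurotrophin receptor Ngfr at 591 and 661 against 161 and 97.7 CPM (2.27 ± 0.39, adjusted p = 0.00972). Ciliated and oviduct genes fell in 3 of 8 (rising 0, 0, 1 and 0, falling 2, 3, 2 and 3), mesothelial genes rose in 1 and fell in 1 of 9 (rising 0, 1, 2 and 2, falling 1, 1, 1 and 3), skeletal muscle genes fell in 1 of 6 (falling 0, 0, 1 and 2), and of 5 red cell genes 1 rose. Of 10 fat cell genes 1 rose (rising 1, 1, 2 and 1, falling 0, 0, 0 and 1), Lpl, while Adipoq, adiponectin, was counted only in proestrus library 1 (2.26 and 0 CPM). Conversely, Arntl passed without diestrus library 2 (adjusted p = 0.00887).

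Ranked by size alone, the 14 largest rises and 14 largest falls were as follows. Several of the rises are proteins of surface epithelium: the membrane-bound serine proteases Tmprss11d and Tmprss11b, the keratin Krt6b and the Sprr2 genes. Tmprss11d had 103 and 59.5 CPM in proestrus and 2 counts in diestrus, a ratio of 1698 with a 95% interval of 469.7 to 14028 for counting error only (adjusted p = 0.00131). Krt6b, at 51.0 and 4.71 CPM in proestrus and 1 count in diestrus, a ratio of 1156 with a 95% interval of 207 to 45707 for counting error only (adjusted p = 0.0415), was much higher in proestrus library 1 than in library 2. Chil1, a chitinase-like secreted protein, had 574 and 68.7 CPM in proestrus and 0.270 and 0.857 CPM in diestrus (9.17 ± 1.70, adjusted p = 0.0129), and Uox, urate oxidase, 249.8 and 41.6 against 0.855 and 0.0504 CPM (8.26 ± 1.23, adjusted p = 0.00640). Fam3b, a secreted relative of Fam3d, had 42.3 and 21.2 CPM in proestrus and 0.0900 and 0.151 CPM in diestrus (7.99 ± 0.61, adjusted p = 0.00124). Fam3d itself, annotated as Oit1, had 88.1 and 74.3 against 23.8 and 6.71 CPM (2.41 ± 0.50, adjusted p = 0.0190), and 3 of the 4 family members rose (rising 2, 2, 3 and 3). The remaining rises were Otop1, Arg1, Sprr2b, Sprr2a3, Sprr2d, Lcn2, Apobec2 and the pseudogene Fut4-ps1. All 14 were higher in proestrus library 1 than in library 2. The same order held in 1680 of all 2175 risers. Of the 1875 fallers, 1171 were lower in proestrus library 1 than in library 2. Calls did not pass without proestrus library 1 for Krt6b and Oit1 (adjusted p 0.0890 and 0.124), without proestrus library 2 for Oit1 (adjusted p 0.0516) and without either metestrus library or either diestrus library for Krt6b (adjusted p 0.0560 to 0.117).

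The largest falls included Kcnd2, a potassium channel, with 3 counts in proestrus against 13.99 and 18.3 CPM in diestrus, a ratio of 212 with a 95% interval of 72.2 to 1030 for counting error only (adjusted p = 0.00153). Slc6a2, the noradrenaline transporter, had 0.615 and 2.18 CPM in proestrus and 64.6 and 95.9 CPM in diestrus (-5.83 ± 0.56, adjusted p = 0.00194), and Lrp2, the endocytic receptor megalin, 0.718 and 0.596 against 14.7 and 94.4 CPM (-6.36 ± 1.07, adjusted p = 0.00925). Ctla2a, a cathepsin inhibitor, had 30.4 and 29.6 CPM in proestrus and 2943 and 399.5 CPM in diestrus (-5.80 ± 0.95, adjusted p = 0.00849), and its near copy Ctla2b may share its reads. Krt23, a keratin, had 0.308 and 0.546 against 128 and 18.7 CPM (-7.40 ± 1.11, adjusted p = 0.00662). The other falls were Wnt11, Cyp26a1, Cxcl15, Fam189a1, Ankfn1, Ihh, Acod1, Pla2g10 and Cwh43. For these genes the proestrus libraries were low together and the diestrus libraries often stood far apart, as Cyp26a1, Ihh and Ctla2a show. The test was missed without proestrus library 1 for Lrp2, Ctla2a and Krt23 (adjusted p 0.0613 to 0.0740) and without proestrus library 2 for Lrp2 and Ctla2a (adjusted p 0.0525 and 0.0576).

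**Figure D4:**
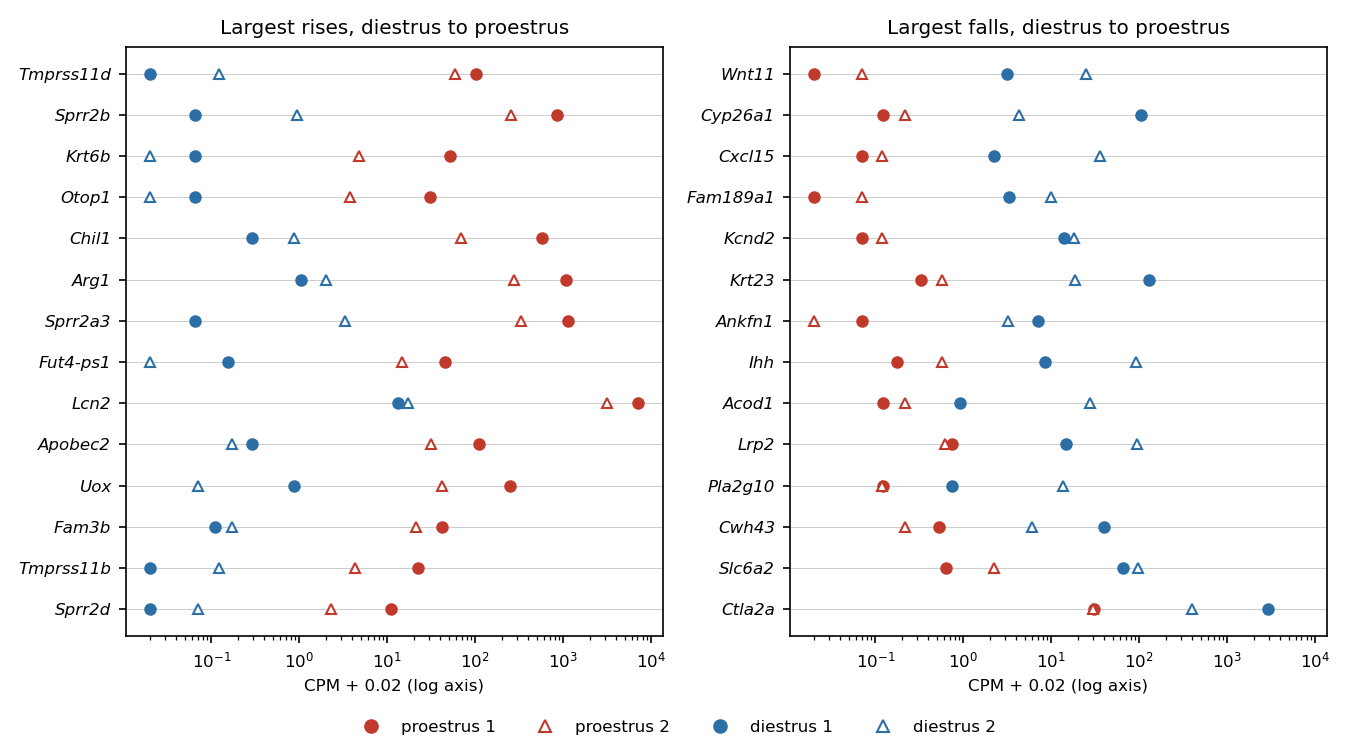
CPM (plus 0.02, log axis) in each of the 4 libraries for the 14 largest rises (left) and 14 largest falls (right) among called genes, with circles for library 1 and triangles for library 2. Proestrus library 1 lies right of library 2 in every rise, and the diestrus libraries are furthest apart in genes such as Cyp26a1 and Acod1.

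The 10 smallest p-values belonged to Lrmp, Ass1, Sfn, Slc40a1, Bpifb5, Serpinb5, Shisa2, Arhgap27, Mfsd4a and Mal2, with adjusted p from 0.000422 to 0.000504. Lrmp, a membrane protein of the endoplasmic reticulum (chromosome 6, 145115653 to 145174934, plus strand), had 133 and 133 CPM in proestrus and 6.97 and 7.46 CPM in diestrus (4.20 ± 0.15). Shisa2, an inhibitor of Wnt and FGF receptor maturation (chromosome 14, 59625308 to 59631660, plus strand), had 75.2 and 59.5 against 4.77 and 4.13 CPM (3.92 ± 0.18), and Mal2, a protein of apical transport in epithelium (chromosome 15, 54571192 to 54602847, plus strand), 238 and 195 against 20.7 and 20.7 CPM (3.39 ± 0.17). Slc40a1 lies on chromosome 1, 45908068 to 45926523, minus strand, Ass1 on chromosome 2, 31470207 to 31520672, plus strand, Sfn on chromosome 4, 133600556 to 133602168, minus strand, Serpinb5 on chromosome 1, 106861173 to 106883348, plus strand and Bpifb5 on chromosome 2, 154223742 to 154240902, plus strand, all in GRCm38 and all protein coding.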

How the data were processed

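Uterine polyA RNA was sequenced from stranded libraries, per the labels' protocols. The authors deposited raw counts per gene, made with STAR and featureCounts of the Subread package on GRCm38 (mm10), per the submitters' processing notes, with versions and strand setting not given in the sources used here. Symbols came from the GENCODE annotation and matched 52058 of 52308 gene IDs. The deposited counts of all 8 libraries were filtered with filterByExpr, scaled by TMM and fitted with edgeR 4.0.16 (R 4.3.3), with proestrus against diestrus tested by the quasi-likelihood F test. Benjamini-Hochberg adjusted p under 0.05 over 18114 genes was called, SE is the change divided by the root of F, and the script was tested on simulated data. Library totals of the 4 libraries are in the report; counting intervals cover counting error only. Where a stage had 0 counts, the fold is a bound against 3 counts over both libraries; with up to that many counts, an exact 95% interval is given.

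Alternatives were DESeq2 1.42.0, limma-voom (3.58.1), DESeq2 size factors, other filters, a minimum fold, the pair alone, the replicate block and each library left out, with the same genes kept in the latter. The members and lists were chosen with earlier results of these data known. Genes were named by rule: the 10 smallest p, the 14 largest rises and falls among called genes averaging at least 5 CPM in the higher stage, up to 5 members with the smallest p in each list, the 10 widest gaps between the diestrus libraries, and defining markers. Clone-like and accession-like names were left out of the largest rises and falls. Other genes named, and the interferon element, were chosen after their values were seen: Adgre1, Aqp1, Calb1, Cd74, Cdh1, Chrd, Ciita, Cma1, Col4a3, Col4a4, Csf1r, Csf3r, Ctla2b, Cxcl10, Cxcl9, Cxcr2, Egr1, Erbb3, Erbb4, Fads1, Foxa2, Gbp2, Gli1, Grhl2, H2-Aa, H2-Ab1, H2-DMa, H2-K1, Ifit1, Igf1, Il1r2, Inhbb, Irf7, Irf9, Isg15, Kdr, Krt14, Krt5, Krt7, Krt8, Lef1, Lgr5, Lor, Ltf, Lyz1, Mcm6, Mcpt4, Mki67, Mpo, Msx1, Muc20, Myh11, Oas1g, Oxtr, Pdgfra, Pecam1, Pigr, Postn, Prlr, Pygm, Retnlg, Rxfp1, S100a8, S100a9, Scnn1a, Smo, Snai2, Sprr2f, Stat2, Tap2, Tfrc, Top2a, Tpsb2, Tsc22d3, Vcan, Vegfa, Wnt2, Wnt6 and Wnt7a. Promoter windows were RefSeq's (GRCm38.p6), found for 12375 tested genes. Some genes of the lists are counted in them but not reported here by name.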

Additional observations from a re-analysis of the deposited data

How the results depend on the processing

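The counts of 2175 risers and 1875 fallers were 2519 and 2104 by DESeq2, 2157 and 1617 by limma-voom, 479 and 194 when tested against a minimum fold of 2, and 756 and 374 in a fit on the 4 libraries of the pair alone. Leaving out 1 library at a time gave 842 to 2450 risers and 404 to 2198 fallers. Of the 186 called genes named, 94 passed under every alternative run except the minimum fold. With the replicate block, that is with the library number as a term in the fit, there were 2275 risers and 1821 fallers, and 6 of the called genes named did not pass. The deviations of same-numbered libraries from their stage means correlated by 0.145 between proestrus and diestrus but by -0.0926 between estrus and metestrus, so the numbers were not taken to pair the libraries. Among the named genes that were not called, the sign of the fitted change depended on the library left out, with ranges over these fits of -5.9 to 1.25 for 5330417C22Rik, -8.47 to 0.431 for Abcb1b, -7.77 to 1.81 for Aqp8, -0.279 to 9.59 for BC048679, -3.31 to 3.18 for Calb1, -4.26 to 3.76 for Ces2b, -1.64 to 0.723 for Csf3r, -1.22 to 1.74 for Cxcl10, -0.684 to 8.63 for Cxcr2, -6.05 to 4.44 for Erbb4, -0.0318 to 0.406 for Esr1, -0.731 to 0.547 for Il1r2, -8.5 to 0.387 for Klk1, -0.382 to 0.596 for Mcm6, -1.23 to 0.0606 for Myh11, -4.8 to 4.32 for Prap1, -1.67 to 2.64 for Prlr, -1.49 to 0.088 for Retnlg, -0.273 to 3.07 for S100a8, -0.402 to 4.71 for S100a9, -1.06 to 1.05 for Vcan and -0.678 to 0.00985 for Vegfa. By limma-voom the sign differed from that of edgeR for Calb1 (0.0435), Prlr (0.417) and Vcan (0.00476). The causes were not tested. With 2 libraries a stage, the spread is estimated from 4 residual degrees of freedom, and genes with few counts have wide counting intervals.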

Other observations

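Some genes took opposite calls with each diestrus library. In the fits without diestrus library 1 and without diestrus library 2, 54 genes passed in opposite directions. Calb1, a calcium-binding protein, had 17.1 and 21.2 CPM in proestrus and 2.11 and 188 CPM in diestrus, Prlr, the prolactin receptor, 30 and 32.6 CPM in proestrus and 99.9 and 4.94 CPM in diestrus, and Vcan, the matrix proteoglycan versican, 89.9 and 99.0 CPM in proestrus and 45.8 and 195 CPM in diestrus. In each of them both proestrus libraries lay between the diestrus libraries. With all libraries none of the 3 passed (adjusted p = 0.291, 0.644 and 0.693).

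Among gene classes, 38 processed pseudogenes rose and 8 fell of 1252 tested, and reads of such copies may come from their parent genes. Of 412 antisense genes, 16 rose and 38 fell, and of 478 long intergenic RNA genes, 53 rose and 51 fell. Among all genes tested, 12.0% rose and 10.4% fell. The long intergenic RNA genes were near both shares, the processed pseudogenes below both, and the antisense genes below the share that rose.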
